A study of Mus musculus and Heterocephalus glaber with 4 samples.

Results

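The regions described here are the 20837 mouse autosomal sites that were called open in control skin fibroblasts and not in skin fibroblasts carrying SV40 large T antigen. They were chosen by 1 rule: a peak of the control list on chromosomes 1 to 19 that no peak of the large T list overlapped by 1 bp or more. They made up 28.6% (95% interval 28.2 to 28.9) of the 72924 autosomal control peaks, out of 75120 control peaks on all chromosomes. The other 52087 autosomal control peaks overlapped a large T peak and are called shared. Since the absence of a large T peak chose the sites, that absence is not a finding, and every comparison with shared peaks below is a description without a test.

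The study profiled open chromatin by ATAC-seq in cultured adult skin fibroblasts of mouse and naked mole rat, with 1 library for each combination of species and treatment. Both mouse libraries were from passage 16 cells grown in 15% serum at 37 °C, 3% oxygen and 5% CO2, and each reaction took 50000 cells. The control is labelled only as a control, and the other mouse cells had SV40 large T antigen introduced. The labels state neither how it was introduced, nor whether the cells were 1 clone or a pool, nor how many animals gave cells. The title of the series concerns reprogramming to pluripotency and the stability of the epigenome in naked mole rat cells.

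In ATAC-seq a transposase cuts and tags DNA where nucleosomes leave it exposed, so reads pile up at active promoters, enhancers and insulators, and a peak caller marks each pile as an interval. Strong promoters usually give tall, wide peaks found in many cell types, whereas distal enhancers usually give weaker peaks that vary more with cell state. Large T antigen is a viral oncoprotein that inactivates p53 and the retinoblastoma proteins, which normally restrain division and senescence of cultured fibroblasts.

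The autosomal control list covered 107 Mb and the autosomal large T list held 61625 peaks over 84.3 Mb. Read depth was not analysed here and is unknown for both libraries, so the number of sites that passed the caller in each list cannot be told apart from depth. With 1 library a group there was no replicate error. Intervals are exact binomial 95% intervals over peaks, or order-statistic intervals for medians. They cover counting error only, and they take peaks that lie side by side as independent. The lists hold no gene names and positions are in mm9, for which no annotation or sequence was used, so the sites are given by position, and the fibroblast label was not checked against marker genes.

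Control-only sites were mostly weak. The authors' peak score, left undefined by the labels and files, started at 50.01 in the control list. Control-only peaks had a median score of 75.8 and shared control peaks 190.2. The middle 80% of control-only peaks lay between 53.5 and 145.4, and the highest reached 465, whereas shared peaks reached 1670. Because these peaks were also narrow, they held 19.4% of the bases covered by autosomal control peaks (20.7 Mb), less than their 28.6% share of peaks.

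The control-only share fell steadily along the score. The control list was divided into 10 equal classes by score, decile 1 being the lowest. In decile 1, with scores up to 59.9, 5096 of 7293 peaks were control-only (69.9%, 68.8 to 70.9). The share was 51.2% in decile 3, 29.3% (28.3 to 30.4) in decile 5 and 9.71% (9.04 to 10.4) in decile 7. In decile 9 it was 1.08% (79 peaks), and in decile 10 only 3 of 7292 peaks were control-only. Decile 1 alone held 24.5% of all control-only peaks, and the upper 5 deciles held 2424 of them. Raising the minimum control score to 100 with the large T list as deposited left 5776 control-only peaks (12.3% of 46992). At a minimum of 200 there were 640 (2.52%) and at 300 there were 82 (0.562%).

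Control-only peaks were narrower than shared peaks of like score. The median was 924 bp (920 to 928) in control-only peaks, against 1422 bp for all shared control peaks. Width grows with score, so shared peaks were also weighted to the score deciles of the control-only peaks, which brought their median to 1002 bp, still 78 bp wider. The difference was present in every decile and grew from decile 4 to decile 9. In decile 1 the medians were 780 bp (773 to 788) for control-only and 871 bp (856 to 884) for shared peaks. In decile 4 they were 993 and 1059 bp. In decile 8 they were 1361 bp (1312 to 1382) and 1607 bp (1591 to 1626), a difference of -246 bp. With both lists limited to scores of at least 100, the overall difference was -126 bp, a change of more than 1.5 times. That limit also counts as control-only the control peaks whose large T peaks all scored below 100.

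**Figure D1:**
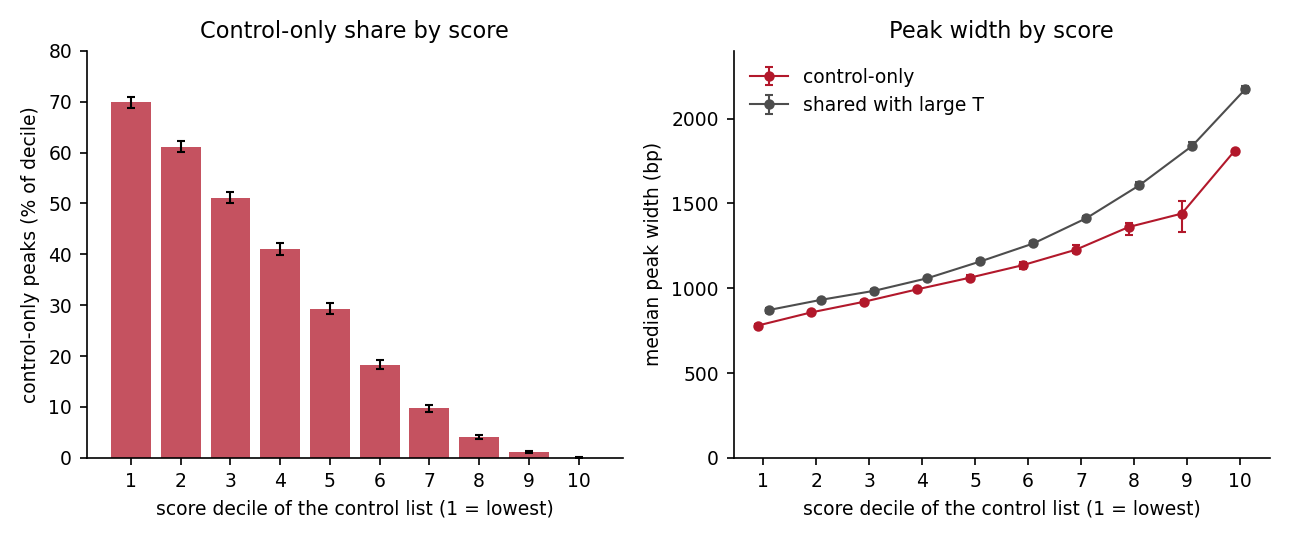
Left, control-only peaks as a percent of the control peaks in each score decile, with exact 95% intervals; right, median width in bp of control-only (red) and shared (grey) control peaks per decile, with order-statistic 95% intervals (none for the 3 control-only peaks of decile 10). The control-only share falls from 69.9% in decile 1 to 1.08% in decile 9, and the red line lies below the grey line in each decile.

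Seen the other way, wide peaks of a given score were control-only less often. Within decile 1, the narrowest of 4 equal width classes (365 to 667 bp) was control-only in 78.8% of cases (76.8 to 80.6) and the widest class (961 bp and above) in 57.2% (54.9 to 59.5). Within decile 5 the shares were 35.4% and 19.2%, and within decile 7 they were 15.0% and 3.84%. Broad peaks of at least 2 kb numbered 406 among control-only sites (1.95%), against 7.37% of shared peaks weighted to the same scores. A wider interval also has more bases that a large T peak can touch, and the part of this in the gradient was not tested. Most shared peaks were overlapped over much of their length: the median shared peak was 86.9% covered by large T peaks, and 1881 shared peaks (3.61%) were covered over less than 50%.

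At the edge of the rule, control-only and shared peaks differed by a few bases. The control-only peak on chromosome 14 at 121946509 to 121947397 (score 64.6) touched a large T peak with a gap of 0 bp. Those on chromosome 3 at 114973410 to 114974031 (score 66.1) and on chromosome 4 at 149351679 to 149352852 (score 52.3) lay 2 bp from one. On the shared side, the smallest overlaps were 5 bp on chromosome 10 at 76335383 to 76336110 (score 51.6), 6 bp on chromosome 15 at 62750532 to 62751568 (score 55.3) and 6 bp on chromosome 16 at 24766876 to 24767995 (score 50.7). Such cases were rare, with 8 control-only peaks within 10 bp of a large T peak and 5 shared peaks overlapped by 10 bp or less.

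Near misses therefore made up little of the set. Of the control-only peaks, 176 (0.845%, 0.725 to 0.978) had a large T peak within 200 bp and 1038 (4.98%, 4.69 to 5.29) within 1 kb. The median gap to the nearest large T peak was 10862 bp (10655 to 11089). At the far end, 6278 control-only peaks (30.1%) had no large T peak within 20 kb and 966 (4.64%) had none within 100 kb.

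Control-only peaks lay farther from other open sites than shared peaks of like score. For a shared peak, the large T peak it overlapped was skipped and the gap to the next was taken. Weighted to the same score deciles, that gap had a median of 7816 bp, and 19.2% of such peaks had no further large T peak within 20 kb. The difference of the medians was 3046 bp, and it was 1668 bp when a control peak had to be covered over at least 50% to count as shared. The nearest shared control peak was 12685 bp away (12458 to 12917) from a control-only peak and 8919 bp from a weighted shared peak. Both measures use the overlap that chose the sites, and a control-only peak can only lie between large T peaks, so the 2 sets are not placed alike. The gap to the nearest control peak of any kind does not use the overlap. Its median was 8784 bp (8636 to 8931) for control-only peaks and 6589 bp for weighted shared peaks.

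**Figure D2:**
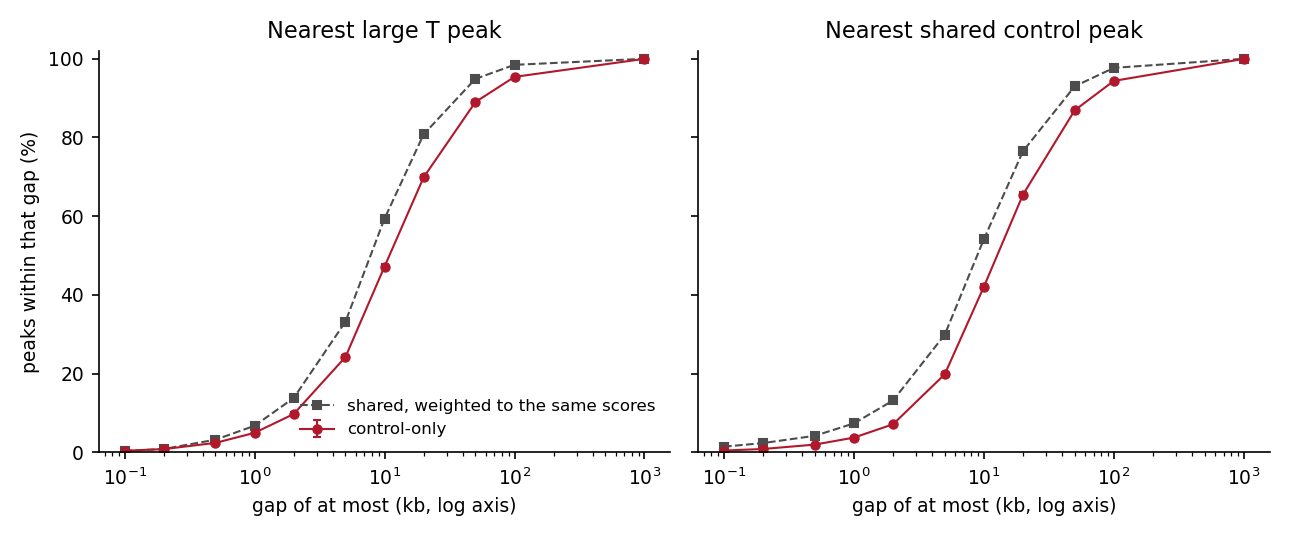
Percent of peaks whose nearest large T peak (left) or nearest shared control peak (right) lay within the gap on the log axis in kb, for control-only peaks (red, exact 95% intervals) and for shared control peaks weighted to the same score deciles (grey). At 10 kb the red curves reach 47.2% and 42.1% and the grey curves 59.4% and 54.1%.

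The remoteness of control-only peaks was nearly level over the low deciles and rose with score above them. In decile 1 the median gap to the nearest large T peak was 10606 bp, against 7582 bp for shared peaks of that decile. In decile 3 it was 10217 bp and in decile 4 it was 10774 bp. In decile 6 the gaps were 12979 and 8314 bp, and in decile 8 they were 17678 and 8898 bp. The strong control-only sites were thus the more distant ones, while the gap of shared peaks changed by less over the same deciles.

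Large T-only peaks lay beside control-only sites about as often as beside shared sites. Of the 61625 autosomal large T peaks, 9150 overlapped no control peak. Such a peak was the nearest large T peak of 3253 control-only peaks (15.6%, 15.1 to 16.1), and of 15.8% of weighted shared peaks. It lay within 1 kb of 299 control-only peaks (1.43%, 1.28 to 1.61), against 1.47% of weighted shared peaks. Within 5 kb the shares were 5.69% (5.38 to 6.02) and 5.54%. The weighted shared values lay inside the intervals of the control-only values at each distance. These are shares of all sites. Large T peaks of any kind were less frequent near control-only sites, at 4.98% against 6.78% within 1 kb and 24.2% against 33.2% within 5 kb. Among sites with a large T peak that near, the nearest was therefore more often large T-only for control-only than for weighted shared sites.

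Flanking sites, defined as control-only peaks with a shared control peak within 5 kb, numbered 4135 (19.8%, 19.3 to 20.4), and 16702 were isolated by that definition. Among shared peaks weighted to the same scores, 29.9% had another shared peak within 5 kb, a difference of -10.1 percentage points. With shared peaks weighted by score decile and width quartile together, a choice made after seeing the data, 24.9% had one and the difference was -5.03 points. With both lists limited to scores of at least 100, the shares were 11.1% of control-only and 16.8% of weighted shared peaks, a difference of -5.63 points. Control peaks that overlapped only weaker large T peaks again counted as control-only there. The flanking share of control-only peaks fell with score, from 22.1% in decile 1 to 8.75% (26 of 297 peaks) in decile 8, and for shared peaks from 32.1% to 20.8%.

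Flanking and isolated control-only peaks differed in both score and width. Flanking peaks were weaker, with a median score of 71.7 (70.7 to 72.8) against 77.0 (76.2 to 77.7), and 7.42% of them stood in the upper 5 score deciles against 12.7% of the isolated. They were nevertheless wider, with a median of 1060 bp (1049 to 1070) against 896 bp (892 to 901). With isolated peaks weighted to the deciles of the flanking ones, their median was 874 bp and the difference 186 bp. A width of 2 kb or more was reached by 3.97% of flanking and 1.45% of isolated sites.

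The width difference was present in deciles 1 to 6 and was not resolved in deciles 7 and 8. In decile 1, the median was 952 bp (935 to 974) for flanking and 744 bp (733 to 751) for isolated sites. In decile 6 the medians were 1318 bp (1261 to 1378) and 1112 bp (1090 to 1134). In decile 7 they were 1334 bp (1219 to 1445) and 1218 bp (1198 to 1246), with overlapping intervals. In decile 8, where 26 flanking peaks remained, they were 1381 bp (1275 to 1550) and 1349 bp (1299 to 1382), and the intervals overlapped. Shared peaks with and without a shared neighbour within 5 kb showed a difference of the same direction, for example 1050 and 813 bp in decile 1 and 1739 and 1567 bp in decile 8. Greater width beside a shared peak was therefore not a property of control-only peaks alone.

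**Figure D3:**
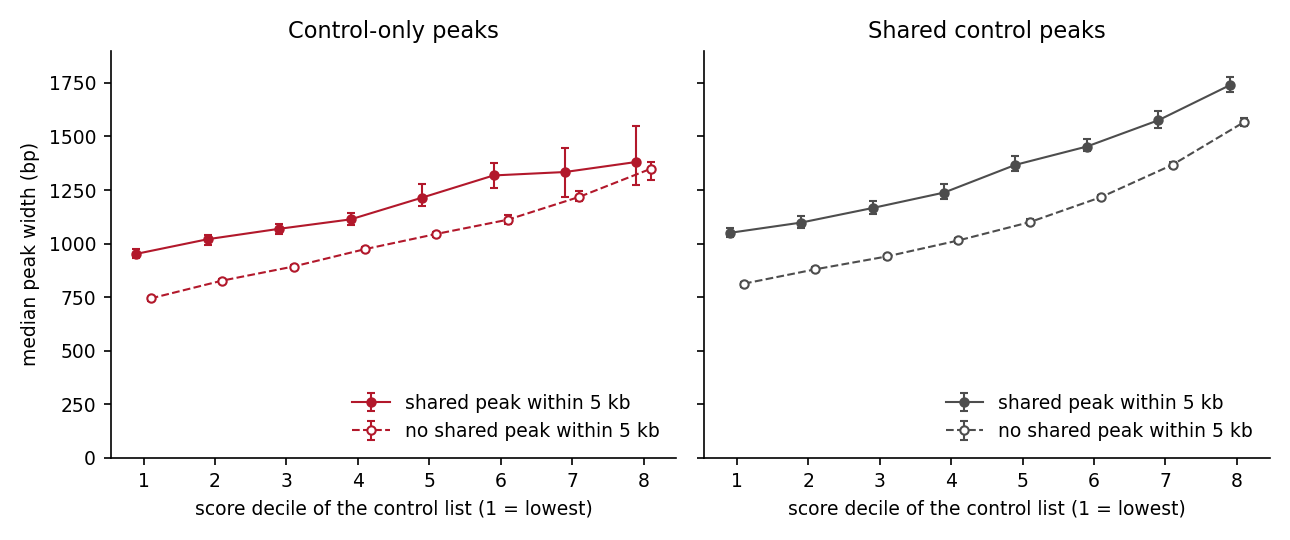
Median width in bp per score decile (1 to 8) of control-only (left) and shared (right) control peaks with a shared peak within 5 kb (filled, solid) and without (open, dashed), with order-statistic 95% intervals. The solid line lies above the dashed line in both panels, and the control-only intervals overlap in deciles 7 and 8.

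The shared peak beside a flanking site was usually the stronger of the 2, but weaker than shared peaks at large. The 4135 flanking sites had 4037 different shared partners, and the partner had the higher score in 3305 pairs (79.9%). Flanking sites had a median score of 71.7 and all shared control peaks 190.2. A stronger partner in most pairs is what these scores would give, and is not a finding about the pairs. Partners had a median score of 142.8, below that of all shared peaks, and a median width of 1340 bp. A lower score was not particular to partners. The percent of shared peaks with another shared peak within 5 kb fell from 32.1% in decile 1 to 13.6% in decile 10. The gap between the 2 peaks had a median of 2827 bp. The partner lay at lower coordinates in 2055 cases and at higher coordinates in 2080, and 297 control-only peaks had shared peaks within 5 kb on both sides.

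The large T peak at the partner fell short of the control peak on both sides alike. Its median width was 1176 bp. Its edge lay at a median of -58 bp from the control edge on the side of the control-only peak, where negative means inside the control peak, and at -55 bp on the opposite side of the same partner. It lay inside in 65.4% of pairs on the facing side and in 64.4% on the opposite side. Falling short was not particular to partners, since only 14.3% of all shared peaks were covered in full by large T peaks.

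Isolated sites have no shared control peak within 5 kb by definition, which leaves only control-only peaks as possible neighbours there. Of the 16702 isolated control-only peaks, 15087 (90.3%) had no control peak of any kind within 5 kb, and 1615 (9.67%) had another control-only peak there. Among shared peaks without a shared neighbour within 5 kb, weighted to the same scores, 86.1% had no control peak within 5 kb. The median distance from an isolated site to its nearest large T peak was 14678 bp (14405 to 14961).

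Control-only sites also had a control-only peak as their nearest control peak more often than shared sites did. The nearest control peak was itself control-only for 7019 control-only peaks (33.7%, 33.0 to 34.3), and for 26.8% of shared peaks weighted to the same scores. By distance, the shares were taken only among sites whose nearest control peak lay that far away. They were 32.7% and 24.7% at 5 to 20 kb, and 40.2% and 31.1%, a difference of 9.13 points, at 20 to 100 kb. For the 1207 control-only peaks with a neighbour within 1 kb they were 35.0% (32.4 to 37.8) and 27.0%. At 1 to 5 kb the difference was 1.29 points (28.8%, 27.5 to 30.1, and 27.5%), which was not resolved from the counting error, so the excess did not change in 1 direction with distance. Counted over all isolated sites, control-only peaks close by were not more frequent. No control peak lay within 5 kb of 90.3% of isolated control-only sites, and of 86.1% of like weighted shared sites. The rest had a control-only peak there. In order along the chromosome, 12.8% of control-only peaks had control-only peaks on both sides, against 8.15% of weighted shared peaks. Sites with shared peaks on both sides numbered 9620 (46.2%), against 54.4%. Runs of exactly 2 neighbouring control-only peaks held 5492 sites, and runs of 4 or more held 2974 sites (14.3%).

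Regions with few open sites had a higher control-only share than their score deciles gave. Local density was counted as the other control peaks within 500 kb on either side, and the expected share was that of all autosomal peaks with the same score deciles. In the sparsest of 5 equal classes of peaks (at most 30 others nearby), 35.9% (35.1 to 36.7) were control-only and 31.1% were expected. In the densest class (54 to 84 others), 23.8% (23.1 to 24.5) were control-only and 27.3% were expected. The 3 middle classes, from sparse to dense, departed by 0.69, -0.83 and -1.15 points.

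The large T score of the nearest shared peak did not itself choose the sites. The overlap that chose them also decides which peaks are shared, so the measure is not separate from that rule. For each shared peak, its percentile by large T score among shared peaks was taken, the percentile by control score was subtracted, and the median of shared peaks in its control score decile was removed. Negative values thus mark shared peaks that ranked lower in large T cells than others of equal control score. The nearest shared peak of control-only sites had a median shift of -0.83 points (-1.09 to -0.56), against 0.23 for weighted shared sites.

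The sign of that shift depended on distance. Where the shared peak lay within 1 kb of the control-only site, its median shift was 4.69 points (3.30 to 6.14), against 2.67 for weighted shared sites. At 1 to 5 kb the values were 1.96 (1.35 to 2.67) and -0.15. At 5 to 20 kb they were -1.37 (-1.77 to -0.99) and 0.28, and beyond 100 kb, with 1179 control-only sites, -2.89 (-4.76 to -1.82) and -1.05. Shared peaks beside flanking sites therefore ranked higher in the large T list, and those nearest to isolated sites ranked lower, by a few percentile points in each case.

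**Figure D4:**
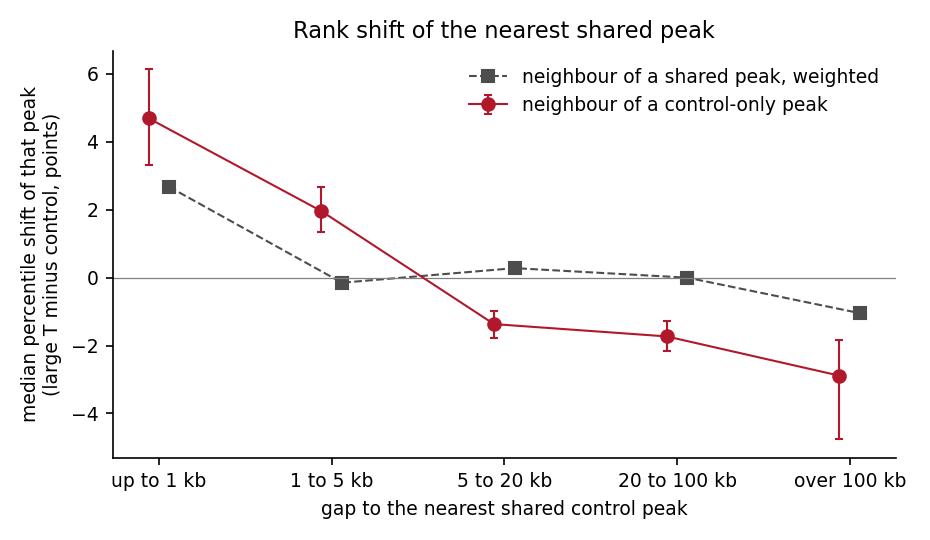
Median percentile shift (large T minus control, in points, relative to shared peaks of the same control score decile) of the nearest shared peak, by its gap to a control-only peak (red, order-statistic 95% intervals) or to another shared peak weighted to the same scores (grey). The red values go from 4.69 within 1 kb to -2.89 beyond 100 kb and cross the grey values between 1 to 5 kb and 5 to 20 kb.

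The 10 control-only peaks with the highest scores lay on 8 chromosomes. The first was on chromosome 16 at 71510809 to 71512619, with a score of 465, rank 5382 of the autosomal control peaks. It stood in a sparse stretch with 13 other control peaks within 500 kb, and its nearest control peak, 118 kb away, was also control-only. The second, on chromosome 11 at 81100371 to 81101774 (score 450.1), lay 55.1 kb from the nearest large T peak. The third, on chromosome 14 at 20604371 to 20606483 (score 426.8), lay 16.1 kb from one and had a shared peak as its nearest control neighbour.

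The remaining 7 of these ranked between 7539 and 9254. The peak on chromosome 13 at 96950506 to 96951373 was the narrowest of the 10, at 868 bp, and its nearest large T peak, at 47.3 kb, was a large T-only peak. The peak on chromosome 2 at 68787371 to 68788659 was the closest to a large T peak, at 5.29 kb, and the one on chromosome 2 at 89760738 to 89761997 the most distant, at 500.2 kb with 4 other control peaks within 500 kb. The others were on chromosome 5 at 69873701 to 69875065, chromosome 13 at 100952727 to 100953842, chromosome 10 at 55743513 to 55746565 and chromosome 18 at 41380455 to 41382029. That on chromosome 10 was the widest of the 10, at 3053 bp. For 7 of the 10 the nearest control peak was also control-only.

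The 3 widest control-only peaks were not among the 10 highest scores but lay above the median control-only score of 75.8. All flanked a shared peak. They lay on chromosome 11 at 86390298 to 86396739 (6442 bp, score 136.9), chromosome 10 at 127926318 to 127932546 (6229 bp, score 99.0) and chromosome 2 at 13501150 to 13507241 (6092 bp, score 124.1). Their nearest shared peaks were 2014, 2312 and 79 bp away.

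The most remote control-only peaks formed a pair on chromosome 15. The peaks at 16243384 to 16244213 (score 63.7) and 16333493 to 16334615 (score 194.3) lay 2.51 and 2.42 Mb from the nearest large T peak and 89.3 kb from each other. Each was the only other control peak within 500 kb of its partner. The next most remote, on chromosome 14 at 110412242 to 110412927 (score 59.6), lay 1.66 Mb from a large T peak and had no other control peak within 500 kb. The same 3 peaks were the farthest from any shared control peak. In all, 12 control-only peaks had no large T peak within 1 Mb.

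Control-only sites were found on every autosome at unequal shares. They made up between 24.7% and 31.9% of an autosome's control peaks, where the score deciles alone gave 27.6% to 29.5%. The interval lay above the value from score deciles on 3 autosomes and below it on 5. If peaks were independent, at most 0.95 of 19 intervals would miss it by counting error alone, but neighbouring peaks were not independent.

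Chromosome 5 had the largest excess, with 1468 of 4599 control peaks control-only (31.9%, 30.6 to 33.3, against 28.0% from its scores). Chromosome 10 followed with 31.7% (30.4 to 33.1, against 28.5%) and chromosome 1 with 31.0% (29.8 to 32.3, against 28.9%). Chromosome 4 had the largest deficit, with 994 of 4031 (24.7%, 23.3 to 26.0, against 28.3%). Chromosome 8 had 26.0% (24.6 to 27.4, against 28.2%) and chromosome 11 had 26.3% (25.0 to 27.6, against 28.2%). Chromosomes 3 and 13 were the other 2 below.

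The order held in part among stronger peaks. In the upper 5 score deciles, 6.65% of all autosomal control peaks were control-only. The shares there were 8.11% on chromosome 5, 8.28% on chromosome 10 and 8.19% on chromosome 1, and 5.47% on chromosome 4, 5.33% on chromosome 8 and 4.57% on chromosome 11. On chromosome 3, with 6.67%, the deficit was seen in the lower deciles only. Per Mb up to the last peak, control-only sites numbered from 6.39 on chromosome 4 to 10.8 on chromosome 10.

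**Figure D5:**
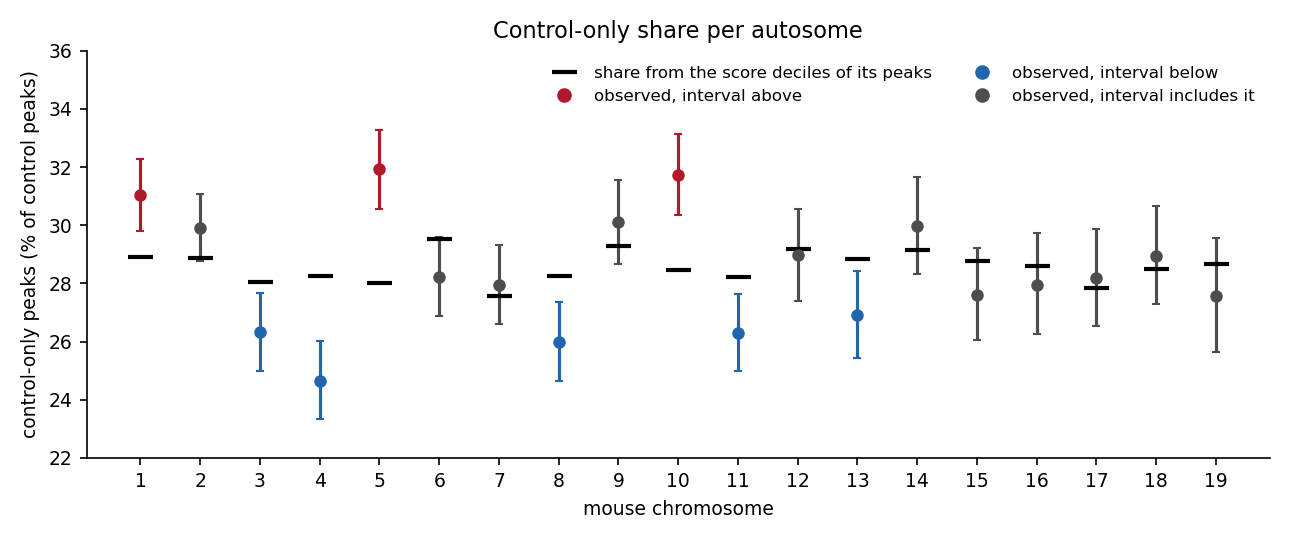
Control-only peaks as a percent of the control peaks on each mouse autosome, with exact 95% intervals (the vertical axis starts at 22%); black dashes give the share that the score deciles of its peaks alone would give. Red points (chromosomes 1, 5 and 10) lie above the dash with their whole interval, and blue points (chromosomes 3, 4, 8, 11 and 13) below it.

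Shared peaks differed in rank between the lists on several of the same chromosomes. The median percentile shift of shared peaks was 2.22 points on chromosome 4 and 1.00 on chromosome 8, and it was -1.51 on chromosome 5, -1.71 on chromosome 10 and -0.92 on chromosome 1. Chromosome 11, with a control-only share below that from its score deciles, had a shift of -0.70. Across the 19 autosomes, the excess of control-only peaks and this shift had a Pearson r of -0.73 and a Spearman rho of -0.67. Across the 362 windows of 5 Mb described below the relation was weaker, with a Pearson r of -0.30. Over the autosomes without chromosomes 5 and 10, the farthest from the median excess, r was -0.59. Chromosome 4, with the largest deficit and the highest shift, was kept in that value. All points come from the same pair of libraries and hold the same peaks' scores, so this is a description.

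Within chromosomes the share also varied, in windows chosen after seeing the data. Of 362 windows of 5 Mb with at least 100 control peaks, 16 had an interval above and 24 below the share given by their scores. These were 40 windows, where counting error alone would put at most 18.1 outside if peaks were independent. The window on chromosome 5 from 40000001 to 45000000 had the highest excess, with 53 of 118 control peaks control-only (44.9%, 35.7 to 54.3, against 28.6%). The window on chromosome 18 at 45000001 to 50000000 had 51 of 119 (42.9%) and that on chromosome 14 at 15000001 to 20000000 had 47 of 119 (39.5%), the next largest excesses. The shared peaks of these 3 windows had median percentile shifts of -2.17, -0.34 and 2.04 points, so the last had an excess of control-only peaks and a positive shift. The windows farthest below the share given by their scores were on chromosome 12 at 55000001 to 60000000, with 24 of 137 (17.5%, 11.6 to 24.9, against 28.4%), and on chromosome 6 at 15000001 to 20000000, with 21 of 117 (17.9%).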

How the data were processed

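Each library has 1 deposited peak list of 5 unnamed columns. Column 5 is the authors' peak score, undefined in the labels and files, and it was used only to rank or filter peaks within a list. Start and end are whole base pairs in the authors' files, read as BED and printed 1-based. Peak names begin with MACS. The submitters' processing notes name the build mm9 and, without roles, the tools Bowtie, bedtools, CASAVA and SAMtools. Settings and pooling are not given in the sources used here.

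Overlaps, gaps (bases between peaks), deciles and weights were computed with numpy 2.4.6 and scipy 1.17.1 in Python 3.11.15, with pandas 2.3.3 for tables. Overlaps were tested against a random subset of the control list, and weights on planted values. Gaps were recomputed by brute force for sampled peaks. Overlaps and gaps were also checked against bedtools 2.31.1. Each shared peak was weighted by the ratio of control-only to shared peaks in its score decile. Regions were named by rule: the 10 highest scores, the 3 widest, the 3 farthest from a large T peak or shared peak, the 3 nearest each side of the overlap limit, and the 3 autosomes highest and lowest against expectation. Windows were chosen after their values were seen. The sites and measures were chosen with earlier results of these data known. Naked mole rat lists were not used.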

Additional observations from a re-analysis of the deposited data

Results flagged for a closer look

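The rule kept to autosomes, and chromosome X, which it left out, carried control-only peaks as well: 766 of 2185 control peaks there (35.1%, exact 95% interval 33.1 to 37.1). It stands here because these peaks enter the report only in the alternative that added chromosome X, where the control-only share was 28.8%. The score deciles of the autosomal list would give 28.6%, and no autosome had a higher control-only share than X. Control-only peaks on X had a median score of 76.4 and a median width of 834 bp.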

How the results depend on the processing

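Among the 45 alternative values, 5 for the control-only share and 7 for the count of autosomes have no comparison with shared peaks. None of the others reversed the direction against shared peaks. In 21 of the 45, the value and its difference from weighted shared peaks, where there is one, stayed within the counting interval. For the count of autosomes the limit was 1.5 times. In the other 24, either moved outside. Some of these alternatives change only the shared peaks used for comparison, so the control-only value is fixed in them and only the difference can move. Requiring 50% of a control peak to be covered gave a control-only share of 31.2%, a width difference of -63 bp, a median gap to large T peaks of 9513 bp (difference from shared peaks 1668 bp, reported 3046 bp), a flanking share of 19.4% (difference -9.00 points, reported -10.1) and a control-only neighbour in 35.8%. Limiting both lists to scores of at least 100 gave 27.2%, -126 bp, 15520 bp (3679 bp), 11.1% (-5.63 points) and 31.1% (4.98 points, reported 6.92). These control-only peaks include control peaks whose large T peaks all scored below 100. With the large T list as deposited, 12.3% of control peaks scored at least 100 were control-only. With the control list limited to its 61625 highest scores, the length of the large T list, the share was 21.4%, the flanking share 16.4% and the share with a control-only neighbour 26.7%. Counting a large T peak within 200 bp as shared gave a flanking share of 19.5% (-11.2 points) and a control-only neighbour in 33.7% (7.73 points). Flank limits of 2 and 10 kb gave 7.15% (-6.04 points) and 42.1% (-12.1 points). The following were added after seeing the data. Weighting by score decile and density quintile gave a width difference of -70 bp, and with the gap at 10862 bp and the flanking share at 19.8% the differences were 2722 bp and -9.01 points. Weighting by score decile and width quartile gave differences of 2105 bp and -5.03 points, and 5.99 points for the neighbour share of 33.7%. Shared peaks whose large T peak overlapped no other control peak gave a flanking difference of -9.07 points. Between 7 and 9 autosomes departed from expectation in all 7 alternatives of that count. No paired analysis was possible because each group had 1 library. Read depth, not analysed here, limits every share.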
